A study of Mus musculus with 72 samples.

Results

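Mt1, Mt2, Mtf1, Slc39a4, Slc39a8, Slc30a1 and Slc30a5, which code for metallothioneins, their metal-sensing transcription factor and zinc transporters, were followed in whole blood of mice given lead in their drinking water. The 7 genes were chosen by name, and every probe set annotated to exactly one of their symbols was taken, which gave 14 of the 45101 probe sets on the array. Each gene was read from its probe set with the highest mean over all 72 arrays, and the others served as a check. Of the 7 genes, 6 passed the filter on low values (log2 signal above 4.14 in at least 7 arrays), as did 12589 of the 18194 genes on the array. Slc39a8 did not pass, and its signal is given as a level with no call.

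Female Balb/c mice, 9 weeks old at the start, received lead acetate trihydrate in their drinking water at 0, 5 or 50 µg/mL over 2 weeks, and lead-free water over the next 2 weeks. After the lead-free period (recovery), blood came from 7 control mice, 15 mice of the 5 µg/mL dose (low lead) and 13 mice of the 50 µg/mL dose (high lead). At the end of the 2 weeks on lead (exposure), it came from 7 control, 15 low-lead and 15 high-lead mice. All 6 groups share the strain, sex, cheek (submandibular) bleed, RNA stabilisation and depletion of globin transcripts. Per the treatment protocol all lead-drinking mice were bled at the first collection and most again at the second, but the labels do not tie an array to a mouse, so arrays were taken as independent samples. The age of the mice, the time in the study and any processing of the 2 collections on separate occasions cannot be told apart.

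Cells keep zinc within a narrow range with a small set of proteins. Metallothioneins are cysteine-rich proteins that bind zinc, copper, cadmium and other metals, and their genes are a widely used readout of metal exposure. MTF-1, the product of Mtf1, is a zinc-finger transcription factor that binds metal response elements in the promoters of Mt1, Mt2 and Slc30a1 when zinc or cadmium rises. The ZIP proteins (Slc39 genes) carry zinc into the cytosol, and the ZnT proteins (Slc30 genes) carry it out of the cytosol, either out of the cell or into organelles.

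The values are log2 signals after RMA, a method that summarises the probes of a probe set and puts all arrays on one scale. Array medians lay between 4.05 and 4.22. The arrays carried strong signal for blood cell markers, with means over the 72 arrays of 12.9 for the platelet gene Pf4, 12.5 for the neutrophil gene S100a8, 10.7 for the T cell gene Cd3e and 9.03 for the B cell gene Cd79a. Of 9 markers of skin, muscle and salivary gland, which a cheek bleed could bring along, 6 passed the filter, with means between 4.03 for Krt14 and 5.24 for Mylpf. These 6 are skin and muscle genes. The salivary gland markers Smr3a and Bpifa2 did not pass and are in no marker mean. In whole blood, fewer cells of a type and less RNA per cell cannot be told apart.

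No gene of the set differed between a lead dose and its control at a Benjamini-Hochberg adjusted p below 0.05 in limma, neither after recovery nor after exposure. The high dose against control after recovery called 0 of 6 genes, where 0.429% of all genes tested were called. The low dose against control after recovery called 0 of 6, with 0% of all genes called. After exposure, the high dose against control called 0 of 6 against a background of 0.0238%, and the low dose against control called 0 of 6 against 1.3%. At an unadjusted p below 0.05 the counts in the same order were 3, 1, 0 and 1 of 6. The share of all genes below that unadjusted p was not counted, and the percentages above are for adjusted p, so these counts have no background beside them. Over these 4 comparisons and 6 genes the 95% intervals of the log2 difference reached from -0.48 at the lowest to 0.53 at the highest, both for Slc39a4. The 2 doses share their control arrays at each collection.

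The calls lay between the 2 doses after exposure and between the collections. High against low lead after exposure called 3 of 6 genes, with Mtf1 and Slc39a4 higher and Slc30a5 lower in high-lead blood, while 18.7% of all genes were called. The same comparison after recovery called 0 of 6, where 0% of all genes were called. At an unadjusted p below 0.05 it had 3 of 6, with no share of all genes counted at that level. Recovery against exposure called 1 of 6 in control mice (36.1% of all genes), 1 of 6 in low-lead mice (44.1%) and 2 of 6 in high-lead mice (49.2%). A test for any difference among the 6 groups called 5 of 6, all but Mt2, against 65.6% of all genes. Whether the lead effect differed between recovery and exposure was tested as an interaction, which called 0 of 6 at either dose, against 0.00794% of all genes at the high dose and 0.0238% at the low dose. The unadjusted p was below 0.05 for 0 of 6 at the high dose and 2 of 6 at the low dose, again with no share of all genes counted at that level.

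**Figure D1:**
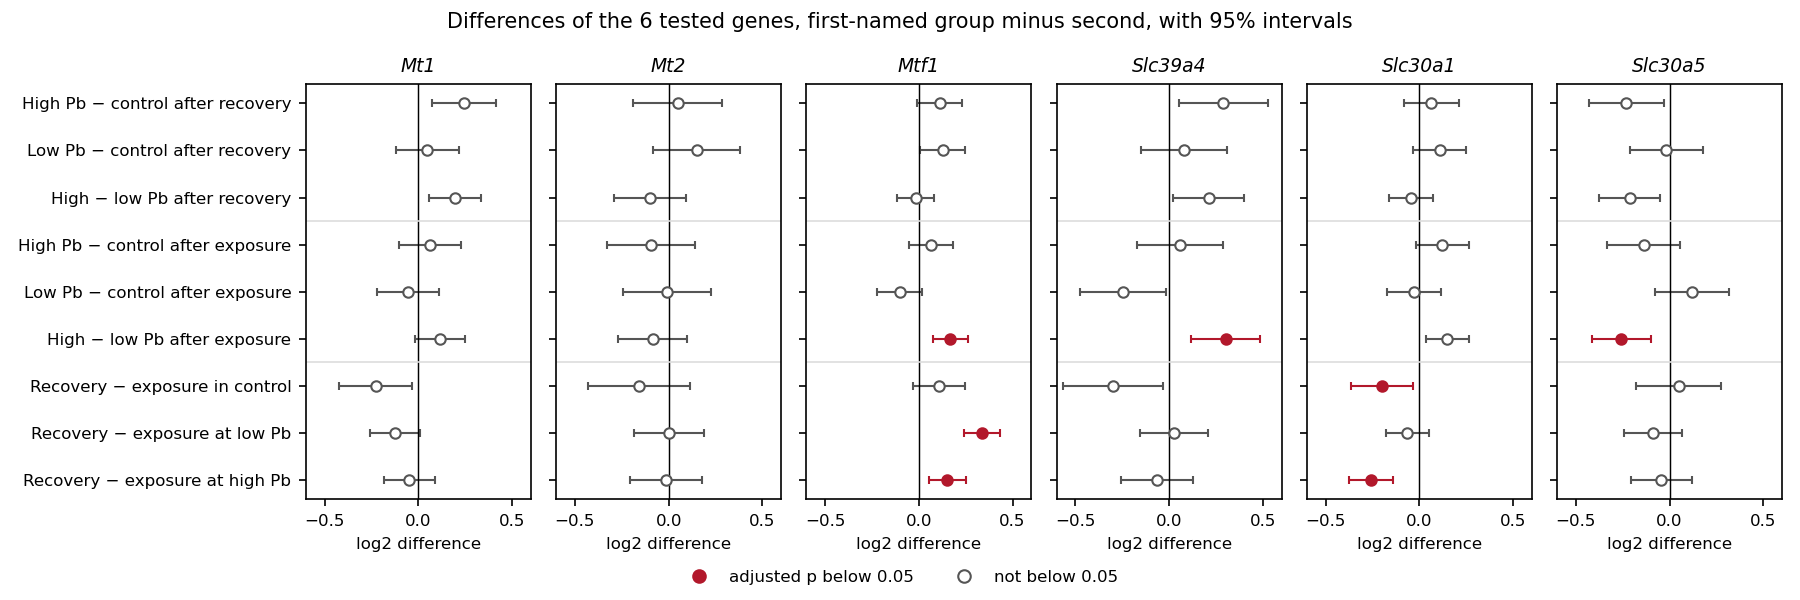
Log2 differences (x axis) of the 6 tested genes, 1 panel per gene, with 95% intervals from limma over all 72 arrays. Filled red points mark an adjusted p below 0.05: Mtf1, Slc39a4 and Slc30a5 in high against low lead after exposure, and Mtf1 or Slc30a1 in recovery against exposure, with no filled point in the rows of a dose against control.

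Mt1 and Mt2 code for the 2 metallothioneins that most mouse tissues make. In the RefSeq annotation of GRCm38.p6 both lie on chromosome 8, Mt2 at 94172618 to 94173567 and Mt1 at 94178883 to 94180327, with Mt3 and Mt4 nearby on the same chromosome. The 250 bases before the start in the promoter table (for Mt1 a start inside the span given above) are shown for Mt1, Mt2 and Slc30a1, the 3 genes known as direct targets of MTF-1, in RefSeq sequence of GRCm38.p6, plus strand. Capitals mark the core of the metal response element, searched as TGCACNC and TGCGCNC on both strands (a minus-strand match reads GNGTGCA or GNGCGCA here).
Mt1, chr8:94178839-94179088: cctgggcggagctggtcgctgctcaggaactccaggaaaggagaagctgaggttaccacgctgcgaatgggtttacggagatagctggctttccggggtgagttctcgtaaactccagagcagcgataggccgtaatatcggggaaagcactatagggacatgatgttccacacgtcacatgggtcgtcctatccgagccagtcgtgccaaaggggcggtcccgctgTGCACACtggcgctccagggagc
Mt2, chr8:94172368-94172617: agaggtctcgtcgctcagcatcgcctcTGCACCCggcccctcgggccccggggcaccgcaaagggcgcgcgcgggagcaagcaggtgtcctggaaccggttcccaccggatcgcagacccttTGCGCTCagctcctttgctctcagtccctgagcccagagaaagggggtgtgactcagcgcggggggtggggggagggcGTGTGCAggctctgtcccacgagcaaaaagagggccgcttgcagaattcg
Slc30a1, chr1:191906531-191906780: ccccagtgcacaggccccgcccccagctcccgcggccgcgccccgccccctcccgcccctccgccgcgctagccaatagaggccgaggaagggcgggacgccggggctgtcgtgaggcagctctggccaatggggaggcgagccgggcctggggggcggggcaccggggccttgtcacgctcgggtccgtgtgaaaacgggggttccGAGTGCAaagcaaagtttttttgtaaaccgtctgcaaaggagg

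In the full window of 300 bases, which adds 50 bases after the start, the core matched 4 times for Mt2, 3 times for Mt1 and 2 times for Slc30a1, without overlaps. Of the 32851 promoter windows in the RefSeq table, 25.7% held at least 1 match, 7.11% at least 2, 1.97% at least 3 and 0.517% at least 4. Slc30a5 had 1 match and Mtf1 had none. Slc39a8 has 2 annotated starts, of which 1 window held a match and the other none. These matches describe the letters of the window only.

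The Mt1 signal was low, with a mean of 4.99 (percentile 64.8 of all probe sets) beside the low-value threshold of 4.14. Its group ranges overlapped throughout. After recovery, the lowest, median and highest log2 signal of Mt1 were 4.52, 4.79 and 5.11 in control blood, 4.64, 4.86 and 5.19 in low-lead blood, and 4.78, 5.06 and 5.31 in high-lead blood. After exposure they were 4.85, 5.02 and 5.33 in control blood, 4.72, 5.01 and 5.19 in low-lead blood, and 4.72, 5.06 and 5.70 in high-lead blood. High-lead blood after recovery had 5 of 13 arrays above all 7 control arrays, and the 2 groups otherwise overlapped.

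For Mt1, high lead minus control after recovery was 0.24 ± 0.09 (SE; means of 5.06 and 4.82), with an adjusted p of 0.227. High minus low lead after recovery was 0.19 ± 0.07, with an adjusted p of 0.252. Recovery minus exposure was -0.23 ± 0.10 in control mice (adjusted p = 0.0574), -0.13 ± 0.07 in low-lead mice (0.120) and -0.05 ± 0.07 in high-lead mice (0.574). Ordered by mean, the groups ran from high lead after exposure (5.11) through high lead after recovery (5.06), control after exposure (5.05), low lead after exposure (4.99) and low lead after recovery (4.87) to control after recovery (4.82). No neighbouring pair of groups in this order passed the test, nor did any in the orders of the other 6 genes. The smallest adjusted p among all neighbouring pairs was 0.120.

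Mt2 lay near the low end of the tested genes. After recovery, its lowest, median and highest log2 signal were 4.07, 4.35 and 4.52 in control blood, 4.25, 4.43 and 5.52 in low-lead blood, and 4.16, 4.34 and 4.64 in high-lead blood. After exposure they were 4.36, 4.40 and 4.79 in control blood, 4.20, 4.38 and 5.91 in low-lead blood, and 4.14, 4.38 and 4.79 in high-lead blood. The medians of the 6 groups thus lay within 0.09 of each other, and the highest value of each low-lead group stood apart. Mt2 passed no test: low lead minus control after recovery was 0.15 ± 0.12 (adjusted p = 0.9998), and the test among the 6 groups gave an adjusted p of 0.682. By mean, Mt2 ran from control after exposure (4.49), low lead after recovery (4.49) and low lead after exposure (4.48) through high lead after exposure (4.40) and high lead after recovery (4.38) to control after recovery (4.34).

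The second Mt1 probe set, 1422557_s_at, is the one annotated with the RefSeq transcript of Mt1, and 2 of the 72 arrays stood far above the rest in it. Replicate 2 of the low-lead group after recovery had a log2 signal of 8.95 and replicate 12 of the low-lead group after exposure had 8.94. The other 70 arrays lay between 3.99 and 5.15, with a median of 4.44. Against that median, the 2 arrays were 22.7-fold and 22.6-fold higher on this probe set.

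The 2 arrays were also the highest for Mt2, at 5.52 for replicate 2 after recovery and 5.91 for replicate 12 after exposure, where the other 70 arrays had a median of 4.38 and a maximum of 4.79. This was 2.20-fold and 2.88-fold above the median. On the Mt1 probe set used above, 1451612_at, the same 2 arrays were unremarkable, at 5.00 (rank 35 of 72) and 5.10 (rank 24). The 2 probe sets of Mt1 thus disagreed on these arrays. Over the other 70 arrays they had a Pearson r of 0.45 (Spearman rho of 0.43).

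Few other probe sets shared the pattern. Both arrays were above all 70 others in 37 of 45101 probe sets, and by more than 1 on the log2 scale in 3 of them: the Mt1 probe set and the unnamed 1433438_x_at and 1456182_x_at. Mt3, a metallothionein known mainly from brain, had 7.03 (rank 66) and 7.63 (rank 1) in these arrays, and Mt4, known from squamous epithelium, had 2.89 and 2.61. None of the other genes of the set was at the top or bottom rank in either array. The mean of the skin and muscle markers that passed the filter, relative to each gene's mean over all arrays, was 0.07 in replicate 2 after recovery and 0.14 in replicate 12 after exposure. Each was the highest of its group, where the highest of all 72 arrays was 0.22. The part of these tissues in the Mt1 signal was not tested.

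Mt1 on 1422557_s_at and Mt2 had a Pearson r of 0.83 and a Spearman rho of 0.35 over all 72 arrays, and an r of 0.21 and a rho of 0.29 over the 70 other arrays, so the high r rests on these 2 arrays. The labels do not say whether the 2 arrays came from the same mouse. As overall profiles (deviations from the group means over the genes tested), each was the array most like the other, at r = 0.62, with replicate 4 of the control group after recovery next at 0.61 and 0.59.

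In a fit of all 34958 probe sets with 1 symbol, 1422557_s_at passed no test with all arrays, and its SE was 0.27 for high minus low lead after exposure (difference of -0.05, adjusted p = 0.928; 9.45% of these probe sets were called). Without the 2 arrays, a choice made after seeing the data, the difference was 0.25 ± 0.08 (adjusted p = 0.0381), higher in high-lead blood, where 12.8% were called. No other of the 6 dose comparisons or 3 collection comparisons of this probe set or of Mt2 passed the test without the 2 arrays.

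**Figure D2:**
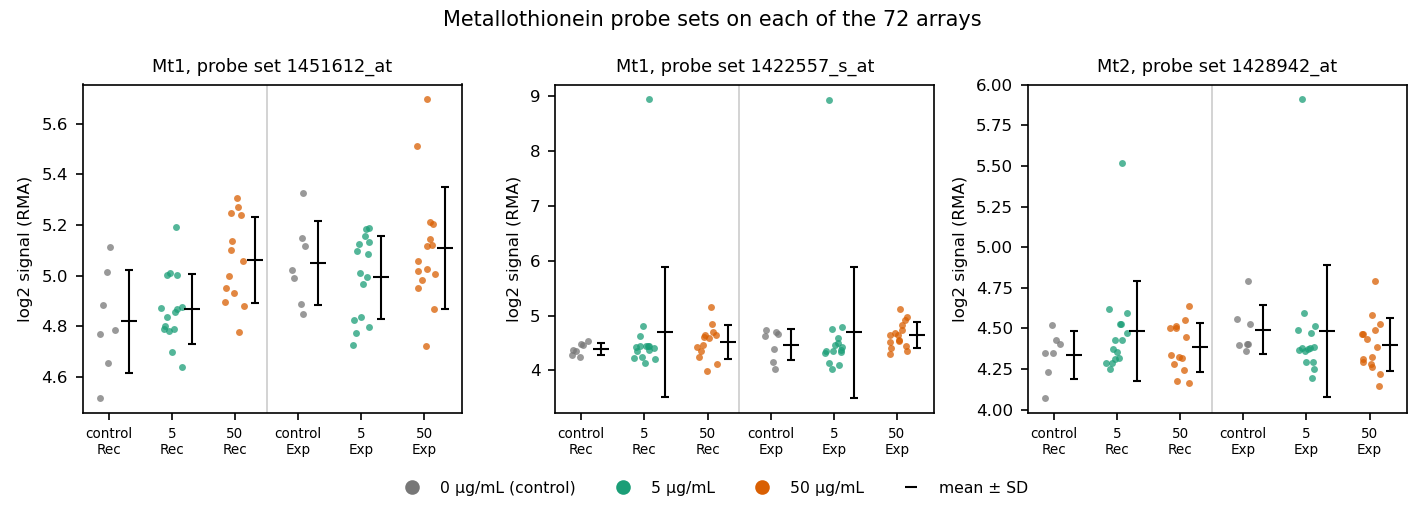
Log2 signal (y axis) of both Mt1 probe sets and of Mt2 on each array, by dose in µg/mL after recovery (Rec) and after exposure (Exp), with mean ± SD beside each group. A single low-lead array after recovery (8.95) and a single one after exposure (8.94) stand above all others on the second Mt1 probe set, and the highest Mt2 values are in the same arrays.

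Mtf1, on the probe set used, had the smallest adjusted p of the set between collections, which its other probe sets did not share. After recovery, its lowest, median and highest log2 signal were 6.70, 6.83 and 6.90 in control blood, 6.74, 6.93 and 7.14 in low-lead blood, and 6.72, 6.93 and 7.23 in high-lead blood. After exposure they were 6.55, 6.73 and 6.77 in control blood, 6.27, 6.61 and 6.73 in low-lead blood, and 6.57, 6.76 and 7.07 in high-lead blood. All 15 low-lead arrays after recovery lay above all 15 low-lead arrays after exposure, while the control and high-lead groups overlapped between collections. The share of all genes that separate in this way was not counted, and 44.1% of all genes were called in that comparison.

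Mtf1 rose in low-lead mice between the collections, by 0.34 ± 0.05 on the log2 scale (1.26-fold, adjusted p = 3.62e-08). It rose in high-lead mice by 0.15 ± 0.05 (1.11-fold, adjusted p = 0.00845), and in control mice the difference was 0.11 ± 0.07 (adjusted p = 0.223). The low-lead effect after recovery minus that after exposure was 0.23 ± 0.08 (adjusted p = 0.253), so a difference of the low-lead change from the control change did not pass. Within the exposure collection, Mtf1 was higher in high-lead than in low-lead blood by 0.17 ± 0.05 (means of 6.77 and 6.60, adjusted p = 0.00978), with 10 of 15 high-lead arrays above every low-lead array. On the other 4 Mtf1 probe sets this difference was between -0.06 and 0.05 and passed no test, and with 6 marker lists as covariates it was 0.12 (adjusted p = 0.221). Ordered by mean it ran from low lead after recovery (6.93), high lead after recovery (6.92) and control after recovery (6.81) to high lead (6.77), control (6.70) and low lead after exposure (6.60).

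The other Mtf1 probe sets did not follow. The next brightest, 1428979_at, had a mean of 5.49 and a Pearson r of -0.45 with the one used over the 72 arrays. On it Mtf1 fell between the collections in high-lead mice, by 0.21 ± 0.06 (adjusted p = 0.00190, with 34.2% of all 1-symbol probe sets called), and recovery minus exposure was -0.07 ± 0.05 in low-lead mice (adjusted p = 0.329; 29.7% called) and -0.17 ± 0.08 in control mice (adjusted p = 0.105; 23.3% called). The remaining 3 probe sets had means of 4.05, 3.51 and 3.46 and passed no test between the collections. The direction of Mtf1 between collections is therefore that of the single probe set 1418333_at, which is annotated with the RefSeq transcript. With quantile normalization the high-lead change was 0.07 (adjusted p = 0.323). With the mean of the 3 Mtf1 probe sets that passed the filter on low values it was -0.05 in high-lead mice (adjusted p = 0.208) and 0.07 in low-lead mice (adjusted p = 0.0552), so neither passed.

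Slc39a4 codes for ZIP4, the importer that takes up dietary zinc in the gut, and had the highest mean signal of the probe sets of the set (7.53, percentile 91.1 of all probe sets). After recovery, its lowest, median and highest log2 signal were 7.00, 7.26 and 7.79 in control blood, 7.10, 7.37 and 8.02 in low-lead blood, and 7.00, 7.63 and 8.08 in high-lead blood. After exposure they were 7.38, 7.64 and 8.09 in control blood, 6.92, 7.36 and 7.88 in low-lead blood, and 7.17, 7.70 and 8.01 in high-lead blood. The ranges of all groups overlapped widely.

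Slc39a4 was higher in high-lead than in low-lead blood after exposure, by 0.30 ± 0.09 (1.23-fold; means of 7.70 and 7.40, adjusted p = 0.0162). The low-lead group had the lower mean of the comparison with its control too, at a difference of -0.25 ± 0.12 (adjusted p = 0.363). After recovery, high lead minus control was 0.29 ± 0.12 (adjusted p = 0.329) and high minus low lead was 0.21 ± 0.10 (adjusted p = 0.330). In control mice, recovery minus exposure was -0.30 ± 0.13 (adjusted p = 0.0729). By mean, high lead (7.70) and control after exposure (7.64) and high lead after recovery (7.63) came before low lead after recovery (7.42), low lead after exposure (7.40) and control after recovery (7.34).

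Slc39a4 moved with the platelet markers. Over 72 arrays, its Pearson r with the mean of 7 platelet marker genes (Pf4, Ppbp, Itga2b, Gp9, Treml1, Tubb1 and Itgb3) was 0.79 and its Spearman rho was 0.79. Each had an adjusted p of 0.00014 over the 70 pairs of gene and marker list. Pearson r was 0.87 over the 35 arrays after recovery and 0.90 over the 37 arrays after exposure (adjusted p of 0.0007 and 0.000233), and 0.77 without the 2 arrays farthest from the median. In all of these tests the unadjusted p was 1e-05, the smallest that the 100000 permutations allow, so the adjusted values do not rank them. The platelet mean was 0.04 in high-lead and -0.20 in low-lead blood after exposure. With the means of 6 marker lists as covariates, high minus low lead after exposure was 0.02 ± 0.06 for Slc39a4 (adjusted p = 0.902), and 0 of 6 genes of the set were called, where 3.32% of all genes were. The part of platelets in the Slc39a4 difference was not tested. The genes with the most similar profile over the 72 arrays were Nfe2 (r = 0.87), a transcription factor of megakaryocytes and red cell precursors, Edem1 (0.86) and Esam (0.86), an adhesion molecule of endothelium and platelets.

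Slc39a8 codes for ZIP8, an importer of zinc, manganese and cadmium. Its 2 probe sets had means of 2.24 and 2.20, at percentiles 16.9 and 16.3 of all probe sets, and lay below 4.14 in all 72 arrays. Group medians on the brighter one were 2.24 in control, 2.27 in low-lead and 2.25 in high-lead blood after recovery, and 2.38, 2.15 and 2.20 in the same order after exposure. The whole range over arrays was 1.73 to 2.83. By mean the order was control after exposure (2.39), low lead after recovery (2.28), high lead after recovery (2.25), high lead after exposure (2.22), control after recovery (2.21) and low lead after exposure (2.15). The 2 probe sets had a Pearson r of -0.17 with each other. Without the filter its largest dose difference was low lead minus control after exposure, at -0.23 ± 0.10 (unadjusted p = 0.0271, adjusted p = 0.392), and none of its 11 comparisons passed.

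**Figure D3:**
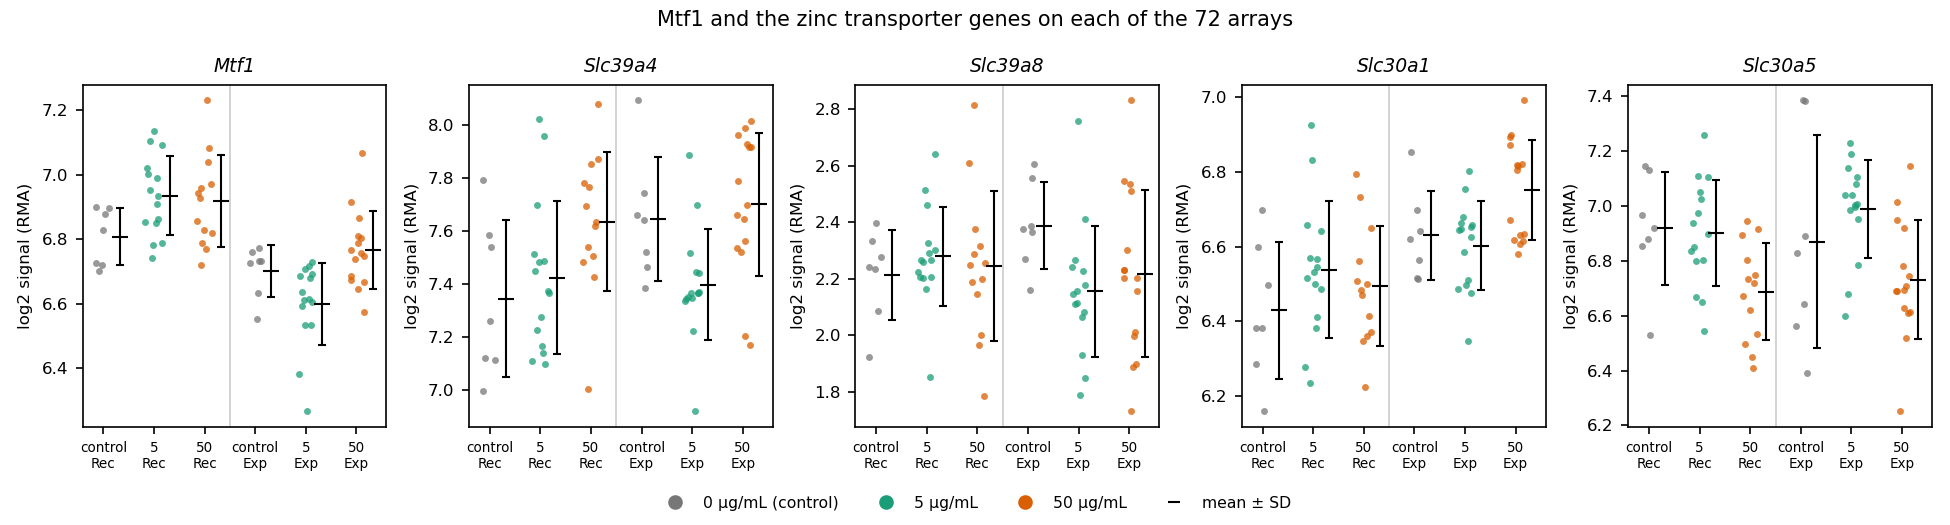
Log2 signal (y axis) of Mtf1 and 4 zinc transporter genes on each array, by dose in µg/mL after recovery (Rec) and after exposure (Exp), with mean ± SD beside each group. For Mtf1 the low-lead arrays after recovery (6.74 or more) lie above those after exposure (6.73 or less), and for Slc39a8 all values lie between 1.73 and 2.83.

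Slc30a1 codes for ZnT1, the exporter in the plasma membrane and a target of MTF-1. After recovery, its lowest, median and highest log2 signal were 6.16, 6.38 and 6.70 in control blood, 6.24, 6.53 and 6.93 in low-lead blood, and 6.23, 6.48 and 6.80 in high-lead blood. After exposure they were 6.51, 6.62 and 6.85 in control blood, 6.35, 6.64 and 6.80 in low-lead blood, and 6.58, 6.81 and 6.99 in high-lead blood. High-lead blood after recovery had 10 of 13 arrays below every high-lead array after exposure.

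Slc30a1 fell between the collections in high-lead mice, by 0.26 ± 0.06 on the log2 scale (adjusted p = 0.000195). In control mice it fell by 0.20 ± 0.08 (adjusted p = 0.0498), a call that was lost when any of 9 of the 14 control arrays was left out (replicates 1, 3, 4, 5 and 6 after recovery and 2, 5, 6 and 7 after exposure; adjusted p between 0.0544 and 0.131). In low-lead mice recovery minus exposure was -0.06 ± 0.06 (adjusted p = 0.368), and it passed at -0.13 with the mean of the gene's probe sets (adjusted p = 0.00669) or quantile normalization (0.0299) and at -0.21 with marker covariates (0.00328). The second probe set, 1422786_at, which carries the RefSeq transcript, fell in all 3: by 0.18 ± 0.06 in high-lead (adjusted p = 0.0157), 0.20 ± 0.06 in low-lead (0.00600) and 0.29 ± 0.09 in control mice (0.00899). High minus low lead after exposure was 0.15 ± 0.06 for Slc30a1 (adjusted p = 0.0534). It passed with quantile normalization (0.21, adjusted p = 0.00145), with only the groups compared (0.0352), with array weights (0.0309) and without the 2 arrays of high Mt1 signal (0.0438).

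By mean, Slc30a1 ran from high lead (6.75), control (6.63) and low lead after exposure (6.60) to low lead (6.54), high lead (6.49) and control after recovery (6.43). Its Pearson r with the mean of 7 glucocorticoid-responsive genes, among them Tsc22d3 and Fkbp5, was 0.57 and its rho was 0.57 (adjusted p of 0.00014 for both). Within collections r was 0.58 after recovery (adjusted p = 0.00257) and 0.27 after exposure (adjusted p = 0.233), and it was 0.53 without the 2 arrays farthest from the median. The relation was not particular to this list. After recovery r was 0.63 with T cells (adjusted p = 0.00175), 0.58 with monocytes (0.00257) and 0.57 with NK cells (0.0033). It was -0.44 with the erythroid list (0.0337). After exposure r with these lists was -0.02, -0.27, -0.10 and -0.03 in the same order, and none passed. With platelets r was 0.62 after exposure (0.0007) and 0.38 after recovery (0.0719). For all 72 arrays it was -0.41 with B cells (0.00172) and 0.32 with eosinophil and basophil markers (0.0199). Neither list passed within a collection: r was 0.23 and 0.10 after recovery, and -0.31 and 0.31 after exposure. The glucocorticoid list averaged -0.13 after recovery and 0.14 after exposure in high-lead blood, -0.10 and 0.17 in low-lead blood, and -0.13 and -0.078 in control blood. Its part in the Slc30a1 differences was not tested. The most similar profiles were those of Casp6, Cacybp and Fbxl17 (r = 0.77 each).

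Slc30a5 codes for ZnT5, which loads zinc into the early secretory pathway for enzymes such as alkaline phosphatases. After recovery, its lowest, median and highest log2 signal were 6.53, 6.92 and 7.14 in control blood, 6.55, 6.90 and 7.26 in low-lead blood, and 6.41, 6.72 and 6.94 in high-lead blood. After exposure they were 6.39, 6.83 and 7.38 in control blood, 6.60, 7.01 and 7.23 in low-lead blood, and 6.25, 6.69 and 7.14 in high-lead blood. High-lead blood had the lowest median of the doses at both collections, and the ranges overlapped.

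Slc30a5 was lower in high-lead than in low-lead blood after exposure, at a difference of -0.26 ± 0.08 (means of 6.73 and 6.99, adjusted p = 0.0161). After recovery the same difference was -0.21 ± 0.08 (adjusted p = 0.270), and high lead minus control was -0.23 ± 0.10 (adjusted p = 0.374). After exposure, high lead minus control was -0.14 ± 0.10 (adjusted p = 0.684), and the SD of the 7 control arrays, 0.39, was the largest of any group for this gene. By mean it ran from low lead after exposure (6.99), control (6.92) and low lead after recovery (6.90), and control after exposure (6.87) to high lead after exposure (6.73) and high lead after recovery (6.69).

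Slc30a5 moved with several marker lists. Its Pearson r with the mean of 6 B cell marker genes (Cd79a, Cd79b, Ms4a1, Cd22, Blk and Fcer2a) was 0.47 and its rho 0.41 over 72 arrays (adjusted p of 0.000262 and 0.00149). Within collections r was 0.55 after recovery and 0.86 after exposure (adjusted p of 0.00497 and 0.000233), and it was 0.44 without the 2 arrays farthest from the median. Over 72 arrays r was also 0.48 with the monocyte list (adjusted p = 0.000262), 0.44 with T cells (0.000764), 0.40 with NK cells (0.0019), 0.40 with the glucocorticoid list (0.00267) and -0.54 with the skin and muscle markers (0.00014). The B cell mean was -0.78 in high-lead and -0.004 in low-lead blood after exposure, and the monocyte mean was -0.31 and 0.06. With 6 marker lists as covariates, high minus low lead after exposure took the opposite sign for Slc30a5, at 0.13 ± 0.07 (adjusted p = 0.285). In that fit Slc30a5 was lower after recovery than after exposure, at differences of -0.58 ± 0.08 in high-lead mice (adjusted p = 2.88e-08, with 40.7% of all genes called), -0.39 ± 0.07 in low-lead mice (6.18e-06; 34.9%) and -0.49 ± 0.10 in control mice (0.000407; 20.7%), where without covariates the differences were -0.04, -0.09 and 0.05 and passed no test. The B cell mean itself was 0.26, 0.55 and 0.54 after recovery and -0.78, -0.004 and -0.51 after exposure in high-lead, low-lead and control blood. The part of any cell type in the Slc30a5 differences was not tested. The most similar profiles were those of Etnk1 (r = 0.90), Gmfb (0.88) and Cyrib (0.88).

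**Figure D4:**
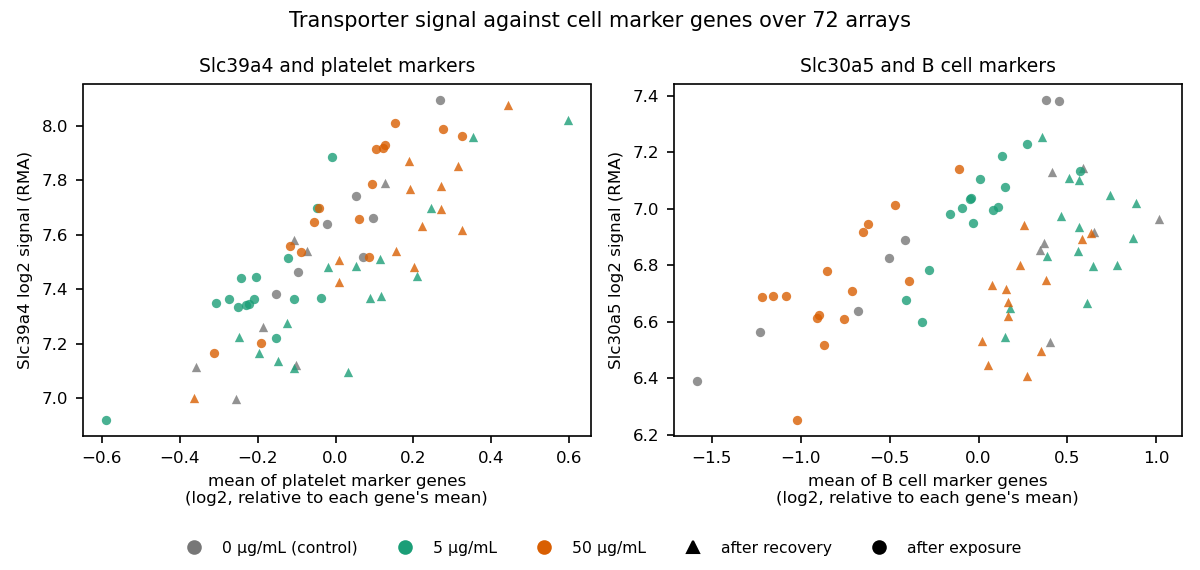
Log2 signal of Slc39a4 against the mean of 7 platelet marker genes (left) and of Slc30a5 against the mean of 6 B cell marker genes (right), 1 point per array, with colour for dose and shape for collection. Slc39a4 follows the platelet mean in both collections (r = 0.87 after recovery and 0.90 after exposure), while the B cell mean is higher on average after recovery, with overlap between the collections, and Slc30a5 follows it within each (r = 0.55 and 0.86).

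Among themselves the 7 genes were weakly related. Of the 21 pairs, 2 passed over the 72 arrays after adjustment over the pairs. Mt1 and Slc30a5 had a Pearson r of -0.42 and a Spearman rho of -0.43 (adjusted permutation p of 0.00525 and 0.0042), with r = -0.58 after recovery (0.0042) and -0.38 after exposure (0.124). Slc39a4 and Slc30a1 had an r of 0.39 and a rho of 0.36 (0.00651 and 0.0206), with r = 0.20 after recovery (0.467) and 0.60 after exposure (0.00252). Without the 2 arrays farthest from the median of the first gene these were -0.41 and 0.34. Mt1 and Mt2 had an r of 0.18 (adjusted p = 0.246) and a rho of 0.17 (0.307). Mt1 also had an r of 0.54 with the mean of the skin and muscle markers (rho of 0.52, both at 0.00014), at 0.51 after recovery (0.0101), 0.47 after exposure (0.0231) and 0.51 without 2 arrays. Its r was as large with the erythroid list (0.54, at 0.00014), and was -0.50 with B cells (0.000233), -0.45 with monocytes (0.000467), -0.44 with T cells (0.000933) and -0.34 with neutrophils (0.0119). Of these lists, only erythroid (0.60, at 0.00257) and B cell (-0.56, at 0.00428) passed after recovery, and none passed after exposure. Monocytes, T cells and neutrophils had -0.29, -0.39 and -0.21 after recovery and -0.41, -0.34 and -0.33 after exposure. Slc30a5 had -0.54 with the skin and muscle markers (rho of -0.57, both at 0.00014), at -0.59 after recovery (0.00257), -0.63 after exposure (0.0007) and -0.57 without 2 arrays. Part of such relations can come from the shared scale of each array, which was not tested.

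The genes most like the remaining members were less close. For Mtf1 they were Rrp1b, Aars and Bcr (r between 0.72 and 0.73), for Mt1 Cyp21a1, Phactr3 and Adgrb1 (0.67 to 0.68), for Slc39a8 Snrpf, Cbx5 and Eny2 (0.52 to 0.58) and for Mt2 Mr1, Atp1b2 and Col1a2 (0.48 each). These are the highest of 12589 values per gene and are given as a description.

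Other genes of zinc and metal handling were counted in the same comparisons. Of 29 further genes tested (10 ZIP importers, 5 ZnT exporters, Mt3, 4 other MTF-1 targets, 6 copper genes and 3 divalent metal carriers), 0 passed in any comparison of a dose with its control. The largest of these differences by p were in Slc11a1, a phagocyte metal transporter, at 0.35 ± 0.12 for low lead minus control after exposure (adjusted p = 0.123), and in Ndrg1, a stress-responsive gene, at 0.28 ± 0.09 for high lead minus control after recovery (adjusted p = 0.160). Between the doses after exposure 1 of 29 passed, where 18.7% of all genes did: Ndrg1 was higher in high-lead than in low-lead blood by 0.24 ± 0.07 (adjusted p = 0.0126). Between the doses after recovery 0 of 29 passed.

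Between the collections, of the 29 genes 3 were higher and 3 lower after recovery in control mice, 5 higher and 6 lower in low-lead mice, and 4 higher and 3 lower in high-lead mice. Over all genes 36.1%, 44.1% and 49.2% were called in the same order, a larger share each time. Slc39a7, which codes for ZIP7, the importer that releases zinc from the endoplasmic reticulum, was higher after recovery by 0.36 ± 0.12 in control, 0.29 ± 0.08 in low-lead and 0.35 ± 0.08 in high-lead mice (adjusted p of 0.0127, 0.0019 and 0.00028). Selenow, a selenoprotein gene, was higher by 0.22, 0.26 and 0.24 in the same order. Gclc, the catalytic subunit of the first enzyme of glutathione synthesis, was lower at differences of -0.32, -0.18 and -0.27, and Csrp1, a cytoskeletal LIM protein gene, at -0.42, -0.25 and -0.33, each past the threshold. The median difference of the 29 genes was -0.01 in control, -0.04 in low-lead and 0.01 in high-lead mice, beside 0.00 to -0.01 over all genes tested.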

How the data were processed

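Whole-blood RNA of 72 samples was depleted of globin transcripts, amplified, labelled with biotin and hybridised to arrays, 1 per sample, per the labels' protocols. The authors deposited log2 values made with RMA, per the submitters' processing notes; for the software, its version and the background step, the sources used here name none. Slides and scan dates were not used here. The lowest array median was 4.05 and the highest 4.22. Gene names came from the platform annotation: 34958 of 45101 probe sets had 1 symbol, 932 had several and 9211 had none. Per gene the probe set with the highest mean was used.

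Group means of all 72 arrays were fitted in limma 3.58.1 (R 4.3.3; 66 residual degrees of freedom), with 11 comparisons and a test over the 6 groups, Benjamini-Hochberg adjustment over the 12589 genes above 4.14, the median of all values, in at least 7 arrays, and a threshold of 0.05. The fit was also run on simulated data with independent noise, a setting without mice bled at both collections. Errors are SE, and intervals 95%. The number of arrays limits the precision. No label pairs an array with a mouse, so p-values take all arrays as independent.

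Marker lists are given as the mean of their genes after each gene's mean over 72 arrays was taken off. Correlations were tested with 100000 permutations, two-sided (NumPy 2.4.6). Promoters came from the RefSeq table of GRCm38.p6. The members and lists were chosen with earlier results of these data known. All 7 genes were fitted in every comparison (Slc39a8 without the filter), and the text gives a selection of these differences. Of each other list, up to 4 genes with the smallest p and those past the threshold could be named, and per gene the 3 most correlated genes, leaving out clone and gene-model names.

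Alternatives were quantile normalization, centred arrays, no filter, the mean of a gene's probe sets that pass the filter, only the groups compared, the replicate block, marker means as covariates, array weights and leaving out each array. Leaving out the 2 arrays of high Mt1 signal, and the other Mt1 probe set, were added after seeing the data.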

Additional observations from a re-analysis of the deposited data

Results flagged for a closer look

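In data outside the values used for each gene, 2 low-lead arrays exceeded every control array of either collection. The second Mt1 probe set, 1422557_s_at, had a log2 signal of 8.95 in replicate 2 of the low-lead group after recovery and 8.94 in replicate 12 of the low-lead group after exposure, against at most 4.74 in the 14 control arrays. Of the probe sets with no gene symbol, 1433438_x_at had 6.22 and 4.88 in the same arrays (controls at most 3.45), 1456182_x_at had 7.07 and 5.79 (at most 3.48), and 1456456_x_at had 7.32 and 5.42 (at most 4.01). Over all 70 other arrays, lead-drinking mice included, the highest values were 5.15 for 1422557_s_at and 3.47, 4.73 and 4.87 for these probe sets in the same order. These probe sets were found by looking for the largest gap in these 2 arrays, so the values are a description. No group of 7 arrays had a single far outlier in any of the 7 genes, and the larger groups were not screened that way.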

How the results depend on the processing

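Calls of a dose against control were 0 of 6 genes under all alternatives run except array quality weights, which called 2 for low lead after exposure (Slc39a4 and Slc30a5), 1 for high lead after recovery (Slc30a5) and 1 in the low-lead interaction (Mtf1). For high against low lead after exposure, the 3 calls became 0 with marker covariates, and leaving out single arrays gave 3 to 4. Slc30a1 was called as well with quantile normalization, only the groups compared, array weights or without the 2 arrays of high Mt1 signal. Recovery against exposure in control mice called 1 gene. That count was 3 with quantile normalization, the replicate block, marker covariates or array weights, 0 with centred arrays, without the filter, with only the groups compared or without the 2 arrays of high Mt1 signal, and 0 to 2 when 1 array is left out. In low-lead mice it was 3 with quantile normalization and 4 with marker covariates, instead of 1, and with the mean of a gene's probe sets the 1 call was Slc30a1 in place of Mtf1. In high-lead mice it was 1 with quantile normalization or the mean of a gene's probe sets and 5 with marker covariates, instead of 2. With marker covariates the share of all genes called between the collections was 20.7% in control, 34.9% in low-lead and 40.7% in high-lead mice. Array weights called 6758 of all genes in control mice, and quantile normalization called 6686 in high-lead mice. For the other settings only the range over all genes is given, below. The test over the 6 groups called 3 with the mean of a gene's probe sets, instead of 5. Of the member pairs, 5 passed as deviations from the group means, 1 after exposure and 4 after recovery, instead of 2. The cause of these shifts was not tested.

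The sign turned in the following differences, given as log2 values. With marker covariates, high lead minus control after recovery was -0.12 for Mt2, -0.13 for Slc39a4 and -0.00073 for Slc30a1, low lead minus control after recovery was -0.19 for Slc39a4, and high lead minus control after exposure was -0.037 for Mt1. Low lead minus control after exposure was then 0.12 for Mt2, 0.025 for Mtf1, 0.0041 for Slc30a1 and -0.14 for Slc30a5, and high minus low lead was 0.13 for Slc30a5. Recovery minus exposure was then 0.13 for Mt2 and -0.49 for Slc30a5 in control mice, 0.10 for Mt1 and -0.25 for Slc39a4 in low-lead mice, and 0.22 for Mt1 and 0.23 for Mt2 in high-lead mice. The interactions were -0.059 for Mtf1 and -0.14 for Slc39a4 at the high dose, and -0.038 for Mt2, -0.18 for Slc39a4 and 0.11 for Slc30a5 at the low dose. With the mean of a gene's probe sets, Mt1 was 0.084 for low lead minus control after exposure, Mtf1 was -0.014 for high lead minus control after recovery, -0.010 and -0.048 for recovery minus exposure in control and high-lead mice and -0.038 in the high-dose interaction, and Slc30a1 was 0.019 for high minus low lead after recovery and 0.025 in the high-dose interaction. On the other Mt1 probe set, low lead minus control after exposure was 0.22, high minus low lead was -0.18 after recovery and -0.053 after exposure, recovery minus exposure was 0.0055 in low-lead mice, and the high-dose interaction was -0.041. With quantile normalization, low lead minus control after exposure was 0.0093 for Mt2, high minus low lead after recovery was 0.017 for Mtf1, and recovery minus exposure was -0.045 for Slc30a5 in control and -0.029 for Slc39a4 in low-lead mice. With centred arrays Mt2 was 0.0054 for low lead minus control after exposure and 0.0087 for recovery minus exposure in high-lead mice. Without the 2 arrays of high Mt1 signal, high minus low lead after exposure was 0.017 for Mt2 and low lead minus control after recovery was 0.0084 for Slc30a5. With the replicate block, low lead minus control was 0.0055 for Mt2 after exposure and 0.015 for Slc30a5 after recovery.

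The replicate numbers gave no clear pairing of the collections: same-numbered arrays correlated above 0.1 in 4 of 13 high-lead, 7 of 15 low-lead and 3 of 7 control pairs, and 1, 3 and 0 of these arrays matched best with their own number. The mean r of same-numbered arrays was -0.006, 0.09 and -0.04 in the same order, beside -0.0004, -1.1e-05 and -0.002 over all pairs. No chance level was set for these values, so the check cannot exclude pairing. Besides the control count above, the replicate block changed no count of calls. Counts over all 12589 genes moved as well. High lead against control after exposure had 3 calls and 2 to 415 under the alternatives, low lead against control after exposure 164 (10 to 1406), high against low lead after exposure 2349 (418 to 3139), high lead against control after recovery 54 (1 to 427), high against low lead after recovery 0 (0 to 95), and low lead against control after recovery 0 (0 to 1). The high-dose interaction had 1 call (1 to 13) and the low-dose interaction 3 (1 to 716). Recovery against exposure had 4544 in control mice (2606 to 6758), 5552 in low-lead mice (4395 to 6622) and 6189 in high-lead mice (5120 to 6686). The test over the 6 groups had 8262 (5390 to 9541). Slc39a8 lay below the filter on low values in all arrays and was kept out of the calls.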
